A study of Rattus norvegicus with 129 samples.

Results

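Rats were given the synthetic steroid pregnenolone-16α-carbonitrile (PCN) once or on 5 consecutive days, and the liver response after 5 doses was set against the response after 1 dose. The comparison used 40 of the 129 expression arrays of the collection, chosen by treatment and time from the sample titles: PCN and vehicle rats killed 24 h after a single dose, and PCN and vehicle rats killed 24 h after the last of 5 daily doses. The collection was gathered to ask how far genes under the receptors CAR and PXR respond to perfluoroalkyl acids in rat liver, and PCN served there as a reference compound.

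All 40 rats were Sprague-Dawley rats, 5 males and 5 females in each of the 4 combinations of treatment and time. PCN was given by oral gavage at 100 mg/kg. Vehicle rats were gavaged with methylcellulose (0.5% in water) that contained Tween 80 at 1%. Each array held the total liver RNA of 1 individually housed rat, so that each rat was a separate replicate. The labels give neither ages nor animal batches.

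PCN binds the rat pregnane X receptor (PXR), a nuclear receptor that pairs with RXR on repeated short motifs in DNA and switches on genes for enzymes and transporters for foreign compounds and steroids. Its best known hepatic targets are the cytochromes P450 of the Cyp3a family, the uptake carrier Slco1a4 and several glucuronosyl and glutathione transferases. The related receptor CAR governs an overlapping set led by the Cyp2b family. The transcription factor NRF2 acts through antioxidant response elements on glutathione transferases, reductases and the enzymes that supply glutathione.

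Promoter stretches of 3 genes that hold a motif for one of these factors are given here from RefSeq (build GRCr8), each 60 bases long, 5′ to 3′ on the strand of the gene. The stretch of Cyp3a23-3a1, a gene high at both times, lies at chr12:14398910-14398969 on the minus strand. That of its neighbour Cyp3a2 lies at chr12:14343951-14344010 on the minus strand. Capitals in both mark 2 copies of the motif TGAACT spaced by 3 bases (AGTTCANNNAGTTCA on the other strand), the arrangement known as a binding site of PXR with RXR. The stretch of Gsta3, whose PCN effect grew, lies at chr9:31154929-31154988 on the plus strand, the 60 bases before the first of its 2 annotated starts. Capitals there mark the core of an antioxidant response element, TGACNNNGC.
Cyp3a23-3a1: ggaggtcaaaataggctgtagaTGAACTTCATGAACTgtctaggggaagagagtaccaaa
Cyp3a2: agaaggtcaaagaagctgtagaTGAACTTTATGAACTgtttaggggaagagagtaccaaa
Gsta3: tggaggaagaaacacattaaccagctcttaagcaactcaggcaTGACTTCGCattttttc

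The repeat spaced by 3 bases was searched only in the exact spelling given above, on both strands of all 33469 promoters of 300 bases. That spelling was held by 2 of them (0.00598%), the pair shown. Other spellings of a repeat spaced by 3 bases were not searched, so that this count does not give the frequency of PXR sites. The antioxidant core was held by 4038 (12.1%). Of other genes in the text, Ugdh, Pgrmc1, Gsta1 and Abcc2 hold the antioxidant core in their windows. Akr7a3, Gsta4, Cyp2b15, Nqo1, Gclc and the window of the second start of Gsta3 do not. A match or its absence is a description of these windows and not of binding.

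The deposited values were intensities, which were quantile normalised over the 40 arrays and put on a log2 scale after adding 16, so that a probe set with no signal sits at a floor of 4.00. Mean intensity per array ran from 168 to 416 before normalisation, 21.1 to 25.5% of values on an array were at or under 0, and the median correlation of an array with the others was 0.937 to 0.957. No array stood apart, and none repeated another (highest correlation between 2 arrays 0.978). Of the 8740 probe sets tested, 650 held the same floor value on all arrays.

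After 1 dose, 248 probe sets passed in the comparison of PCN with vehicle, 2.84% of those tested, with 162 higher and 86 lower (limma with a term for sex, Benjamini-Hochberg adjusted p under 0.05). After 5 doses 948 passed (10.8%), 498 higher and 450 lower. With each array scaled to a common median in place of quantile normalisation, 79.9% of the 209 probe sets that passed at 24 h were higher, against 65.3% here. The 2 time points shared 179 probe sets, 72.2% of the 24 h calls and 18.9% of the 5 day calls, and all 179 had the same direction at both.

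The difference between the PCN effects, 5 days minus 24 h, passed at 35 probe sets (0.4%), 25 higher and 10 lower. An unadjusted p under 0.05 was found at 671. On this basis 168 of the 248 early probe sets persisted, meaning that they passed at 5 days in the same direction and that no difference between the times was shown. Another 11 grew, 3 faded, none turned, and 66 were unresolved, passing at 24 h only with no difference shown. Of the probe sets that passed at 5 days alone, 21 also showed the difference and 748 did not. For those 748 an unequal early effect was not shown, which does not show that the effects were equal.

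**Figure D1:**
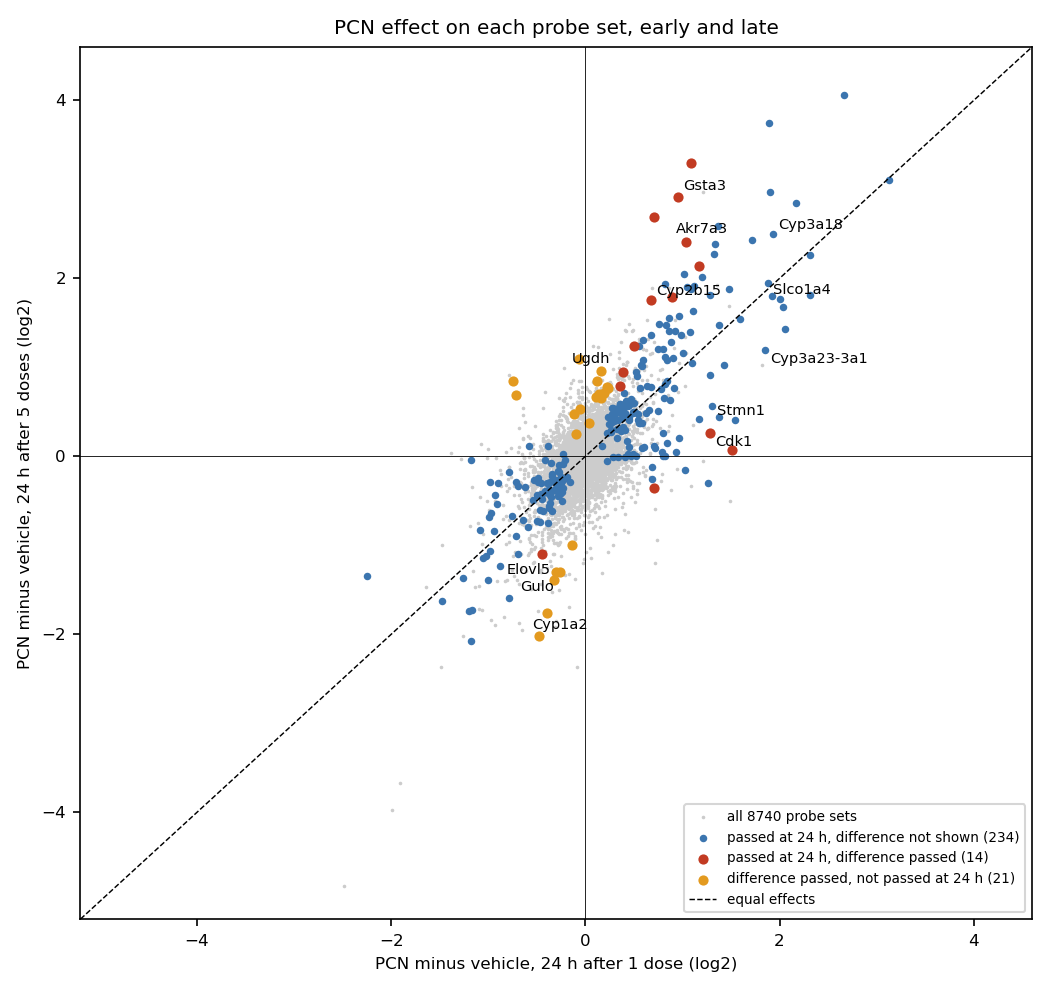
Effect of PCN on each of 8740 probe sets (PCN minus vehicle, log2) at 24 h after 1 dose on the horizontal axis and 24 h after 5 doses on the vertical axis, 10 rats a group. The dashed line marks equal effects. Gsta3 and Akr7a3 lie above it, Cyp3a23-3a1 and Stmn1 below it on the right, and Cyp1a2 and Gulo were low mainly after 5 doses.

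To keep the choice of probe sets apart from the values read, early probe sets were also chosen in 1 sex and read in the other. In the fit over both sexes, the early probe sets that were higher had a median effect of 0.68 at 24 h and 0.58 at 5 days, and those that were lower had -0.45 and -0.41. The 180 probe sets that were higher in females at 24 h had a median effect in males of 0.28 at 24 h and 0.52 at 5 days, and the difference was positive for 147 of them. The 31 that were higher in males at 24 h had a median effect in females of 1.34 at 24 h and 1.11 at 5 days, and the difference was positive for 11. The 117 that were lower in females at 24 h had a median effect in males of -0.13 at 24 h and -0.31 at 5 days. The 4 that were lower in males had -0.30 and -0.41 in females. Each set holds its own probe sets, so that these medians do not compare the sexes, and they were not tested.

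The Cyp3a genes, the classic PXR targets that oxidise steroids and drugs, were led at both times by Cyp3a23-3a1 and Cyp3a18, which passed after a single dose and again after 5, and none of the 4 genes measured showed a difference between the times. Cyp3a23-3a1 lay between 10.33 and 11.32 in the 10 vehicle rats at 24 h (median 10.85) and between 12.38 and 13.08 in the 10 PCN rats (median 12.69). At 5 days the vehicle rats lay between 10.62 and 11.78 (median 11.40) and the PCN rats between 12.36 and 12.92 (median 12.52). The groups did not overlap at either time, and the PCN rats stood at much the same level on both occasions. The effect was 1.85 ± 0.12 (SE) at 24 h and 1.20 ± 0.12 at 5 days, a 3.62-fold and a 2.30-fold rise on the scale with 16 added. The difference of -0.65 ± 0.17 did not pass (adjusted p = 0.0833), although it did when the sexes were fitted with separate effects (adjusted p = 0.0227). Of its parts, the vehicle rats were 0.53 higher at 5 days than at 24 h (adjusted p = 0.00917), and the PCN rats differed by -0.13 (adjusted p = 0.681). The other 3 probe sets of the gene gave differences of -0.62, -0.40 and -0.04, none of which passed.

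Cyp3a18, a male-biased member of the family, had a large spread within each group of 10 in which males and females lay apart. Vehicle rats lay between 6.08 and 10.02 (median 8.80) at 24 h and PCN rats between 8.93 and 11.30 (median 10.46). At 5 days the vehicle range was 6.08 to 10.38 (median 8.36) and the PCN range 10.24 to 11.46 (median 10.87). The plot of kept effects shows the females below the males in each group. The effect was 1.94 ± 0.28 at 24 h and 2.50 ± 0.28 at 5 days, with no difference shown (adjusted p = 0.848). Cyp3a2, also male-biased, passed at 5 days (1.16 ± 0.28, adjusted p = 0.00406) and not at 24 h (0.69 ± 0.28, adjusted p = 0.245), and its difference of 0.47 ± 0.40 did not pass. Cyp3a9 passed at neither time (0.82 ± 0.35 and 0.81 ± 0.35). Read by sex, Cyp3a2 had already passed at 24 h in females (1.40 ± 0.27, adjusted p = 0.00139), with an effect of -0.02 ± 0.27 in males. Cyp3a9 passed at 5 days in males (1.87 ± 0.44, adjusted p = 0.00785), with -0.24 ± 0.44 in females. Its difference between the times was 1.34 ± 0.62 in males and -1.34 ± 0.62 in females, opposite values that cancel in the fit over both sexes. Neither passed, nor did the contrast between the sexes (adjusted p = 0.366).

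Cyp2b2, the main CAR-responsive P450 of rat liver, was clear of vehicle in every PCN rat at both times. Vehicle rats lay between 7.32 and 9.47 (median 8.48) at 24 h and between 8.02 and 10.20 (median 9.18) at 5 days. PCN rats lay between 9.99 and 11.58 (median 10.55) and then between 11.75 and 12.29 (median 11.89). The spread of the PCN rats was narrower after 5 doses (SD 0.18 against 0.53, n = 10 each). The effect was 2.17 ± 0.23 and then 2.85 ± 0.23, and the difference of 0.68 ± 0.33 did not pass (adjusted p = 0.631). A second, dimmer probe set of the gene, of a kind designed to match a family of similar sequences, went from 1.17 ± 0.15 to 2.14 ± 0.15 and its difference of 0.97 ± 0.21 passed (adjusted p = 0.0213). The Cyp2b genes are near copies of each other, and such probe sets cannot tell them apart with certainty.

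Cyp2b15, read from a family probe set as well, grew. Vehicle rats lay between 7.62 and 8.48 (median 7.84) and PCN rats between 7.77 and 9.27 (median 8.61) at 24 h, with 7 PCN rats above all vehicle rats. At 5 days the vehicle range was 7.60 to 8.74 (median 7.93) and the PCN range 9.57 to 9.97 (median 9.75), with no overlap. The effect rose from 0.68 ± 0.14 to 1.76 ± 0.14, a difference of 1.08 ± 0.20 (adjusted p = 0.00458), and the call held in all 40 fits that left out 1 rat.

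Por and Alas1, which serve the P450 enzymes, had positive differences that did not pass. Por, the reductase that feeds electrons to microsomal P450s, had an effect of 1.08 ± 0.21 at 24 h and 1.88 ± 0.21 at 5 days (difference 0.80 ± 0.30, adjusted p = 0.372), and its PCN and vehicle groups overlapped at 24 h and not at 5 days. Alas1, the rate-limiting enzyme of haem synthesis, lay between 8.41 and 9.56 in vehicle rats (median 8.79) and between 8.18 and 11.01 in PCN rats (median 9.99) at 24 h. At 5 days it lay between 7.89 and 9.67 (median 9.11) and between 10.20 and 11.67 (median 11.03). The groups overlapped at 24 h and were apart at 5 days. The effect went from 0.82 ± 0.23 to 1.93 ± 0.23 and the difference of 1.11 ± 0.32 did not pass (adjusted p = 0.144), though it passed with separate effects for the sexes (adjusted p = 0.0331). Of the 19 measured genes on a list of phase 1 enzymes and partners under PXR or CAR, 8 were higher and none lower at 24 h, and 9 were higher and 2 lower at 5 days. Of all genes, 1.98% were higher and 1.08% lower at 24 h, and 6.74% higher and 5.3% lower at 5 days. Only Cyp1a2 among the 19 showed a difference. Their median difference was 0.06, beside 0 over all 4736 genes read.

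Slco1a4, which carries bile acids and other organic anions into the hepatocyte, had nearly equal effects at both times. It lay between 8.99 and 10.30 in vehicle rats (median 9.74) and between 11.41 and 11.80 in PCN rats (median 11.55) at 24 h, and between 9.17 and 10.71 (median 9.95) and between 11.61 and 12.13 (median 11.93) at 5 days. Every PCN rat was above every vehicle rat at both times. The effect was 1.88 ± 0.14 and 1.95 ± 0.14, and the difference of 0.06 ± 0.19 had a 95% interval from -0.33 to 0.45. Its relative Slco1a1 went from 0.52 ± 0.11 to 0.95 ± 0.11 (difference not passed, adjusted p = 0.341).

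Of the export pumps, Abcc2, Abcc3 and Abcb1a passed at 5 days only, and Abcb1b passed at neither time. Abcc2, which moves conjugates into bile, had an effect of 0.32 ± 0.12 at 24 h (adjusted p = 0.2) and 0.92 ± 0.12 at 5 days (adjusted p = 8.2e-07). Abcc3, which moves them into blood, had 0.25 ± 0.25 (adjusted p = 0.811) and 1.55 ± 0.25 (adjusted p = 2.97e-05). Their differences of 0.60 ± 0.17 and 1.30 ± 0.36 did not pass (adjusted p = 0.144 and 0.126), and that of Abcc3 passed under 2 of the alternatives, with the sexes fitted separately and with 89 arrays of the parent study. Of 14 transporters measured, 2 were higher at 24 h and 6 at 5 days, beside 1.98% and 6.74% of all genes. At 5 days 1 was lower, beside 5.3% of all genes, and none of the 14 showed a difference. Abcb1a and Abcb1b, the drug efflux pumps, were close to the floor (means 4.76 and 4.77), and Abcb1a passed at 5 days (1.21 ± 0.27, adjusted p = 0.00179). Read by sex, Abcc3 passed at 5 days in females (2.36 ± 0.28) and not in males (0.73 ± 0.28). Abcb1a likewise passed in females (1.78 ± 0.36) and not in males (0.64 ± 0.36). The contrasts between the sexes at 5 days did not pass (adjusted p = 0.0583 and 0.45).

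**Figure D2:**
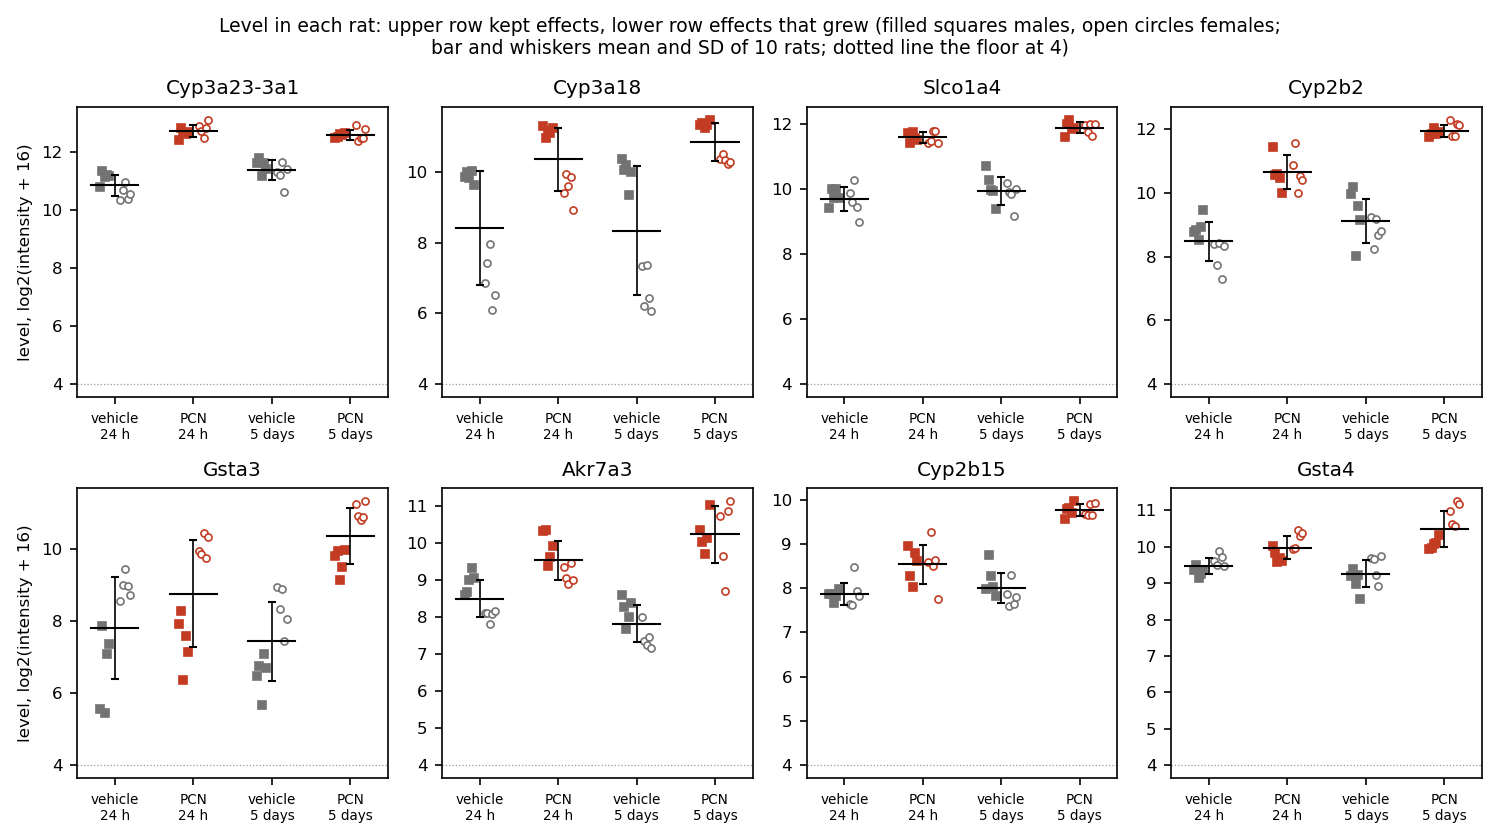
Level of 8 genes in each of the 40 rats, log2(intensity + 16), by treatment and time, males as filled squares and females as open circles, with the mean and SD of each 10. In the upper row the PCN rats of Cyp3a23-3a1, Slco1a4 and Cyp2b2 were above every vehicle rat at both times, and in the lower row the 4 genes overlapped with vehicle at 24 h and were apart at 5 days.

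The largest difference among the 22 genes that passed was that of Gsta3, an alpha-class glutathione transferase known for its handling of aflatoxin epoxide. At 24 h the vehicle rats lay between 5.45 and 9.44 (median 8.20) and the PCN rats between 6.36 and 10.44 (median 9.01). At 5 days the vehicle rats lay between 5.66 and 8.94 (median 7.27) and the PCN rats between 9.13 and 11.32 (median 10.37). The groups overlapped after 1 dose and were apart after 5, with females above males in every group. The effect rose from 0.96 ± 0.28, which is 1.94-fold, to 2.91 ± 0.28, which is 7.54-fold. The difference of 1.96 ± 0.39 passed (95% interval 1.17 to 2.75, adjusted p = 0.0102), and the other 2 probe sets of the gene gave 2.22 ± 0.36 and 1.99 ± 0.28, which passed too. The PCN rats were 1.59 higher at 5 days than at 24 h and the vehicle rats differed by -0.37 (adjusted p = 0.726). The call held in all 40 fits that left out 1 rat. Without normalisation between arrays the 2 dimmer probe sets of Gsta3 were the only 2 of all 8740 that still passed.

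Akr7a3, the aldehyde reductase that acts on aflatoxin dialdehyde, behaved in a like way. Vehicle rats lay between 7.82 and 9.32 (median 8.39) and PCN rats between 8.89 and 10.34 (median 9.44) at 24 h, and between 7.18 and 8.60 (median 7.85) and between 8.69 and 11.13 (median 10.25) at 5 days. After 5 doses every PCN rat was above every vehicle rat. The effect went from 1.04 ± 0.22 to 2.41 ± 0.22, a 2.05-fold and then a 5.32-fold rise, and the difference was 1.37 ± 0.31 (adjusted p = 0.0322). Between 24 h and 5 days the PCN rats differed by 0.70 (adjusted p = 0.0424) and the vehicle rats by -0.68 (adjusted p = 0.103). The call was lost in 11 of the 40 fits that left out 1 rat (adjusted p up to 0.0599).

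Gsta4, the transferase specialised in lipid peroxidation aldehydes, rose from 0.50 ± 0.12 to 1.24 ± 0.12 (difference 0.74 ± 0.16, adjusted p = 0.0295). Its call was lost with median scaling (adjusted p = 0.102) and without vehicle female rat 1513 or PCN female rats 5514 or 5511. A second, dimmer probe set of Gsta4 had a difference of 0.71 ± 0.21, which did not pass (adjusted p = 0.147). Gsta1, an abundant alpha-class transferase whose 3 probe sets all match a family, passed only from its brightest probe set, 0.03 ± 0.05 at 24 h against 0.38 ± 0.05 at 5 days (difference 0.34 ± 0.08, adjusted p = 0.0322). It was lost with median scaling (adjusted p = 0.392) and in 12 of the 40 fits without 1 rat. Gstm1, a mu-class transferase, went from 0.83 ± 0.16 to 1.48 ± 0.16 and did not pass (adjusted p = 0.275). Mgst2, a membrane-bound transferase, had 0.14 ± 0.09 at 24 h and 0.70 ± 0.09 at 5 days (difference 0.56 ± 0.13, adjusted p = 0.0373), a call lost in 23 of the 40 fits without 1 rat.

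Ugdh makes the UDP-glucuronate that glucuronosyltransferases consume. Its vehicle rats lay between 9.84 and 10.37 (median 10.01) and its PCN rats between 9.79 and 10.64 (median 10.20) at 24 h, and between 9.50 and 10.32 (median 10.04) and between 10.42 and 11.37 (median 10.94) at 5 days. The groups were intermingled after 1 dose and apart after 5. The effect was 0.16 ± 0.11 and then 0.96 ± 0.11 (difference 0.80 ± 0.16, adjusted p = 0.0115), with the call held in all 40 fits without 1 rat. A second, dimmer probe set of Ugdh had 0.18 ± 0.13 and 0.37 ± 0.13, and its difference of 0.19 ± 0.19 did not pass (adjusted p = 0.902). Ugt2b1, a glucuronosyltransferase, passed at both times (1.07 ± 0.16 and 1.39 ± 0.16, no difference shown), and the sulfotransferase Sult2a1 passed at neither time. Of 27 conjugating enzymes measured, 6 were higher and 1 lower at 24 h, 12 were higher and 3 lower at 5 days, and 4 had a larger effect at 5 days. Over all genes, 1.98% were higher and 1.08% lower at 24 h, 6.74% higher and 5.3% lower at 5 days, and 0.359% had a higher and 0.106% a lower difference.

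The NRF2 targets, enzymes of the antioxidant and glutathione systems, were higher in number and size after 5 doses. Of 20 measured members, 7 were higher at 24 h and 15 at 5 days, beside 1.98% and 6.74% of all genes. None were lower at either time, and the difference was positive for 17 of 20. The median effect was 0.43 at 24 h and 1.07 at 5 days, and the median difference 0.65, against medians of 0 over all genes. Those whose own difference passed were Gsta3, Akr7a3 and Ugdh. Among the others, which were picked after their values were seen, the glutathione reductase Gsr had effects of 1.20 ± 0.24 and 2.01 ± 0.24. The epoxide hydrolase Ephx1 had 0.56 ± 0.12 and 1.24 ± 0.12 (difference 0.68 ± 0.17, adjusted p = 0.0688). Gclc and Gclm, the subunits of the rate-limiting enzyme of glutathione synthesis, had 0.65 ± 0.19 and 0.41 ± 0.19 at 24 h, neither of which passed, and 1.32 ± 0.19 and 1.03 ± 0.19 at 5 days, which did. Gpx2 went the other way, 0.78 ± 0.29 and then -0.28 ± 0.29, passing at neither time. With no normalisation the list's median difference was 0.75, with 1 member higher at 24 h and 13 at 5 days.

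**Figure D3:**
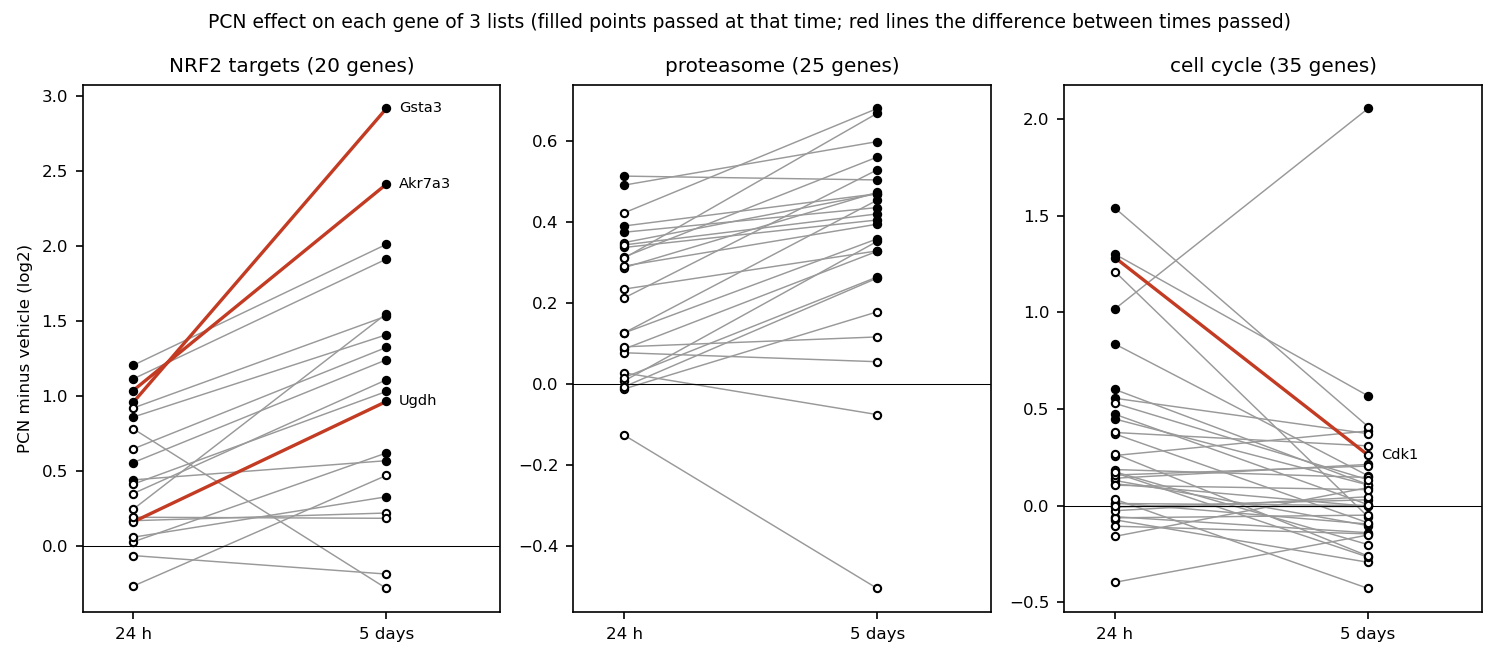
PCN effect (log2, PCN minus vehicle) on each measured gene of 3 lists at 24 h and at 5 days, 1 line a gene, filled points where the gene passed at that time and red lines where the difference between times passed. NRF2 targets went from 7 to 15 genes passed and proteasome genes from 5 to 20, while cell cycle genes went from 9 to 2. Over all genes the higher calls went from 1.98% to 6.74%.

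Other genes with a larger effect after 5 doses were Bnip3l, Pgrmc1, Sik2, Ptp4a1, Hprt1, Ubald1, Slc16a7, Timm10b, Srsf2 and Epcam. Bnip3l, a mitochondrial outer membrane protein active in mitophagy, was already apart from vehicle at 24 h (9.58 to 9.93 against 9.17 to 9.56) and further apart at 5 days (10.01 to 10.60 against 9.24 to 9.66). Its effect rose from 0.39 ± 0.06 to 0.95 ± 0.06 (difference 0.55 ± 0.09, adjusted p = 0.00178). Pgrmc1, a haem-binding partner of P450 enzymes, went from 0.36 ± 0.07 to 0.79 ± 0.07 (adjusted p = 0.0393), a call lost in 23 of 40 fits without 1 rat and with median scaling. Ptp4a1, a phosphatase of growing cells, lay between 9.05 and 9.88 in PCN rats at 24 h, overlapping vehicle at 8.90 to 9.80, and between 10.15 and 10.89 at 5 days, above vehicle at 9.17 to 9.94. Its effects were 0.12 ± 0.10 and 0.85 ± 0.10 (adjusted p of the difference = 0.00945). Sik2, a salt-inducible kinase, had 0.11 ± 0.07 and 0.67 ± 0.07 (adjusted p of the difference = 0.00347). Hprt1, the purine salvage enzyme often used as a reference gene, had -0.06 ± 0.10 and 0.54 ± 0.10 (adjusted p of the difference = 0.0322), and its second probe set passed as well. Of these calls, those of Sik2, Ptp4a1 and Bnip3l held in all 40 fits without 1 rat. Those of Hprt1, Srsf2, Ubald1, Slc16a7, Timm10b and Epcam were lost in 9, 16, 21, 29, 30 and 32 of them. Their own differences lay between 0.34 and 0.60. Dimmer probe sets gave 0.30 ± 0.18 and 0.15 ± 0.44 for Timm10b, and 0.30 ± 0.23 and -0.03 ± 0.22 for Srsf2, none of which passed.

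Among the 5 genes whose difference passed with a negative sign, that of Cyp1a2 was the largest in size. This P450 of aromatic amines, driven in liver by the Ah receptor, lay between 10.46 and 11.66 in vehicle rats (median 11.15) and between 10.08 and 11.36 in PCN rats (median 10.58) at 24 h. At 5 days vehicle rats lay between 9.98 and 11.58 (median 10.97) and PCN rats between 8.28 and 9.54 (median 9.22). The groups overlapped after 1 dose and were apart after 5, when PCN rats held 29.6% of the vehicle level. The effect was -0.40 ± 0.18 at 24 h, which did not pass (adjusted p = 0.336), and -1.76 ± 0.18 at 5 days. The difference was -1.36 ± 0.26 (adjusted p = 0.00883), and the other 2 probe sets gave -1.04 ± 0.19 and -1.54 ± 0.31, which passed too. The vehicle rats differed by -0.14 between the times (adjusted p = 0.933) and the PCN rats by -1.50 (adjusted p = 5.98e-07). In whole liver, fewer cells of a type and less RNA per cell cannot be told apart.

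Gulo, which makes vitamin C in the rat, and Elovl5, which lengthens polyunsaturated fatty acids, were also low mainly after 5 doses. Gulo lay between 8.79 and 9.80 in PCN rats at 24 h (median 9.32), overlapping vehicle at 8.87 to 10.20 (median 9.73), and between 6.79 and 8.45 at 5 days (median 8.08) against 8.33 to 9.72 in vehicle (median 9.37). At 5 days 7 of 10 PCN rats were below all vehicle rats. Its effect went from -0.32 ± 0.15 to -1.39 ± 0.15 (difference -1.07 ± 0.21, adjusted p = 0.0102). Elovl5 lay between 11.11 and 11.81 in PCN rats at 24 h (median 11.38) against 11.60 to 12.10 in vehicle (median 11.79), and between 9.52 and 11.42 at 5 days (median 10.23) against 11.16 to 11.84 (median 11.56). Already at 24 h 7 of 10 PCN rats were below all vehicle rats, and at 5 days 9 of 10 were. Its effect went from -0.31 ± 0.14 to -1.30 ± 0.14 (difference -0.99 ± 0.20, adjusted p = 0.0102). Both calls held in all 40 fits without 1 rat. Pc, the pyruvate carboxylase of gluconeogenesis, was low at 24 h (-0.45 ± 0.10) and lower at 5 days (-1.10 ± 0.10), when every PCN rat was below every vehicle rat. Its difference of -0.65 ± 0.14 passed (adjusted p = 0.0317) but was lost with median scaling (adjusted p = 0.0523) and in 7 of 40 fits without 1 rat. A second probe set of Pc had a difference of -0.61 ± 0.16, which did not pass (adjusted p = 0.103).

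Some genes that break down amino acids or make urea were lower after PCN. Of 36 measured, 7 were lower at 24 h, where 1.08% of all genes were. At 5 days 14 were lower and 1 higher, where 5.3% and 6.74% of all genes were. None of the 36 showed a difference. The lower count at 24 h was 4 with median scaling and 2 with no normalisation, and that at 5 days was 7 with no normalisation. Sds, the serine dehydratase of gluconeogenesis, varied widely, from 4.00 to 10.89 in PCN rats at 24 h and from 4.00 to 9.74 at 5 days, when 6 of 10 were at the floor. Its effect was -2.49 ± 0.84 at 24 h (adjusted p = 0.122) and -4.83 ± 0.84 at 5 days (adjusted p = 6.59e-05), with a 95% interval of the difference from -4.74 to 0.06. Other large effects that persisted were those of Gaa, the lysosomal acid glucosidase (2.01 ± 0.32 and 1.77 ± 0.32), Nptn (1.48 ± 0.32 and 1.88 ± 0.32) and Grin2a (1.93 ± 0.41 and 1.80 ± 0.41). Grin2a, a glutamate receptor of neurons, sat at the floor in 8 of 10 vehicle rats at each time. A second, dimmer probe set gave smaller effects for both Nptn (0.18 ± 0.40 and 0.38 ± 0.40) and Grin2a (0.14 ± 0.13 and 0.09 ± 0.13).

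**Figure D4:**
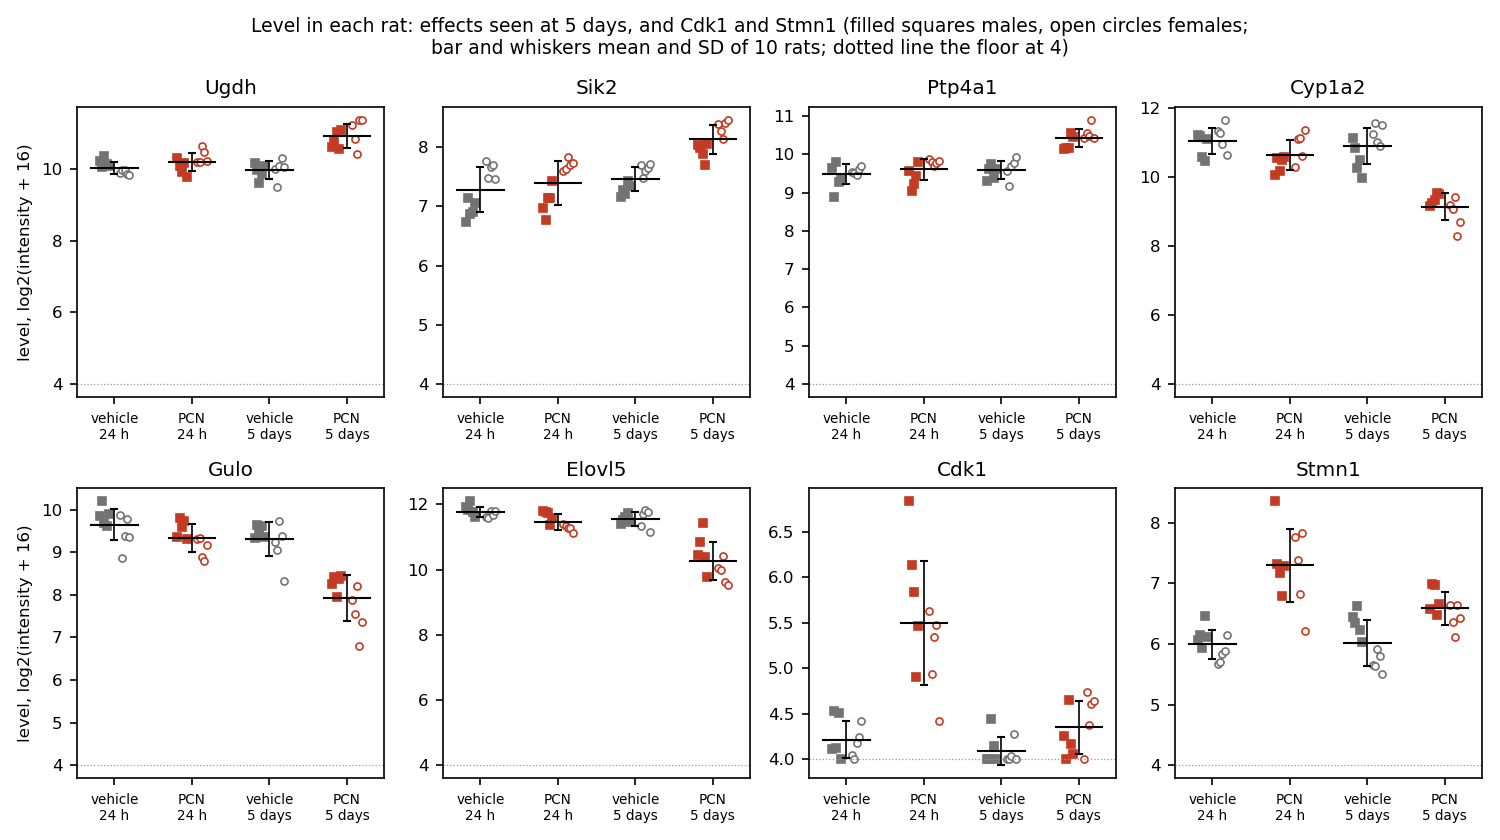
Level of 8 genes in each of the 40 rats, log2(intensity + 16), by treatment and time, males as filled squares and females as open circles, with the mean and SD of each 10. PCN rats of Ugdh and Ptp4a1 were above and those of Cyp1a2 below every vehicle rat at 5 days but not at 24 h. Cdk1 and Stmn1 were highest in PCN rats at 24 h, with Cdk1 near the floor at 4.00.

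Some cell cycle genes were higher after 1 dose, and fewer passed after 5. Of 35 measured, 9 were higher at 24 h and 2 at 5 days, beside 1.98% and 6.74% of all genes. None were lower at either time, and the difference was positive for 9 of 35. The median effect went from 0.17 to 0.03. With no normalisation 3 were higher at 24 h and 1 at 5 days. Cdk1, the kinase that starts mitosis, lay between 4.00 and 4.53 in vehicle rats (median 4.15) and between 4.42 and 6.84 in PCN rats (median 5.47) at 24 h. At 5 days it lay between 4.00 and 4.44 (median 4.00) and between 4.00 and 4.74 (median 4.32). After 1 dose 9 of 10 PCN rats were above all vehicle rats, and after 5 doses 4 of 10. The effect fell from 1.28 ± 0.17 to 0.26 ± 0.17 and the difference of -1.02 ± 0.25 passed narrowly (adjusted p = 0.048). It was lost in 32 of 40 fits that left out 1 rat (adjusted p up to 0.0853) and with median scaling (adjusted p = 0.0523), and no value at 5 days was far above the floor.

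Stmn1, a microtubule regulator of dividing cells, lay between 5.67 and 6.46 in vehicle rats (median 6.00) and between 6.22 and 8.36 in PCN rats (median 7.30) at 24 h, and between 5.50 and 6.62 (median 5.97) and between 6.11 and 6.99 (median 6.61) at 5 days. Its effect was 1.30 ± 0.16 and then 0.57 ± 0.16, and the difference of -0.73 ± 0.22 did not pass (adjusted p = 0.173). The topoisomerase Top2a, named after its values were seen, had 1.54 ± 0.25 and then 0.41 ± 0.25 (difference -1.13 ± 0.35, adjusted p = 0.184). Higher at both times was Mdm2, the ubiquitin ligase that restrains p53 and a p53 target itself, likewise named afterwards, which had 1.02 ± 0.19 at 24 h and 2.05 ± 0.19 at 5 days (difference 1.04 ± 0.27, adjusted p = 0.0848). The other faded probe sets were one of Nup58, a nuclear pore protein, with a difference of -1.07 ± 0.23 (adjusted p = 0.0257), and 1 with no gene name. That of Nup58, 1 of 6 of the gene and not its brightest, had -1.67 ± 0.31 in males and -0.46 ± 0.31 in females. The contrast between the sexes did not pass (adjusted p = 0.407). Mean levels of all the faded probe sets were close to the floor, 4.48 for Nup58, 4.43 for the unnamed one and 4.54 for Cdk1.

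Subunits of the proteasome, which degrades tagged proteins, passed in larger number after 5 doses. Of 25 measured subunits, 5 were higher at 24 h and 20 at 5 days, beside 1.98% and 6.74% of all genes. None were lower, and none showed a difference. The median effect was 0.23 and then 0.41, and the difference was positive for 21 of 25 with a median of 0.12. Psmb3 of the catalytic ring had 0.49 ± 0.12 and 0.60 ± 0.12. The median difference of the list was 0.36 in males and -0.04 in females, a contrast that was not tested. Without normalisation no subunit passed at 24 h and 3 did at 5 days. Of 32 cytosolic ribosomal proteins none passed in any comparison.

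The vehicle rats themselves differed between the times, and those rats enter every difference given here. In vehicle 222 probe sets passed between 24 h and 5 days (2.54%), and in PCN rats 680 (7.78%). Of the 35 probe sets with a difference, which the same rats enter, 33 passed in the PCN rats between the times and 2 in the vehicle rats. Cholesterol synthesis and uptake genes were lower in vehicle rats at 5 days than at 24 h for 10 of 15 (median -0.74), where 1.27% of all genes were lower. Fatty acid oxidation genes under PPARα were higher for 13 of 29 (median 0.43), where 1.54% of all genes were higher. In lipogenesis 6 of 15 were lower. Read from the brightest probe set of each gene, only Elovl5 of these 3 lists showed a difference in the PCN effect. The medians of the difference were 0.32, -0.15 and -0.03. Cyp4a1, a fatty acid hydroxylase under PPARα, was an example, 1.40 higher in vehicle rats at 5 days and 0.55 higher in PCN rats, with a PCN effect of -0.45 ± 0.26 and then -1.30 ± 0.26 (difference not passed, adjusted p = 0.513). Dimmer probe sets of 2 further lipid genes also passed, Acly (1.59 ± 0.36, adjusted p = 0.0322) and Crot (-0.87 ± 0.21, adjusted p = 0.048). These calls held in 27 and 7 of the 40 fits without 1 rat. For Acly the vehicle rats differed by -1.47 between the times (adjusted p = 0.000514) and the PCN rats by 0.12. With no normalisation no cholesterol gene passed in vehicle. The labels give neither feeding state nor the time of day at killing.

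Males and females were also read apart. At 24 h 35 probe sets passed in males (0.4%) and 297 in females (3.4%), and at 5 days 385 (4.41%) and 711 (8.14%). The difference between the times passed at 9 in males (0.103%) and at 39 in females (0.446%), with 1 probe set, of Gsta3, in both. Without 1 rat the male count ran from 5, without PCN male rat 5008 or 5015, to 17, without PCN male rat 5010. The female count ran from 8, without PCN female rat 5514, to 71, without vehicle female rat 1511 or PCN female rat 5513. No probe set (0%) showed a difference between the times that differed between the sexes (limma, lowest adjusted p = 0.182, with 791 at an unadjusted p under 0.05). All 35 probe sets of the fit over both sexes had the same sign in each sex, 14 of them larger in males and 21 in females. They were chosen on both sexes of these same rats, which favours a shared sign, so that this is no separate test. Of the 35, 18 passed in neither sex alone.

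The difference of Alas1 passed in males alone, and that of Cyp1a2 in females alone. In males the PCN effect on Alas1 was 0.18 at 24 h and 2.03 at 5 days, a difference of 1.85 ± 0.37 (adjusted p = 0.0236), and in females 1.47 and 1.84, a difference of 0.37 ± 0.37. The contrast of -1.48 ± 0.53 between the sexes did not pass (adjusted p = 0.408). Cyp1a2 had a difference of -0.66 ± 0.32 in males and -2.05 ± 0.32 in females, and the contrast of -1.39 ± 0.45 did not pass either (adjusted p = 0.366). At single times 13 probe sets (0.149%) had unequal PCN effects in the sexes at 24 h and 35 (0.4%) at 5 days. Cyp3a18 was among the latter, with an effect of 3.65 in females and 1.35 in males, and so was Cyp3a2, with 2.19 and 0.12.

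**Figure D5:**
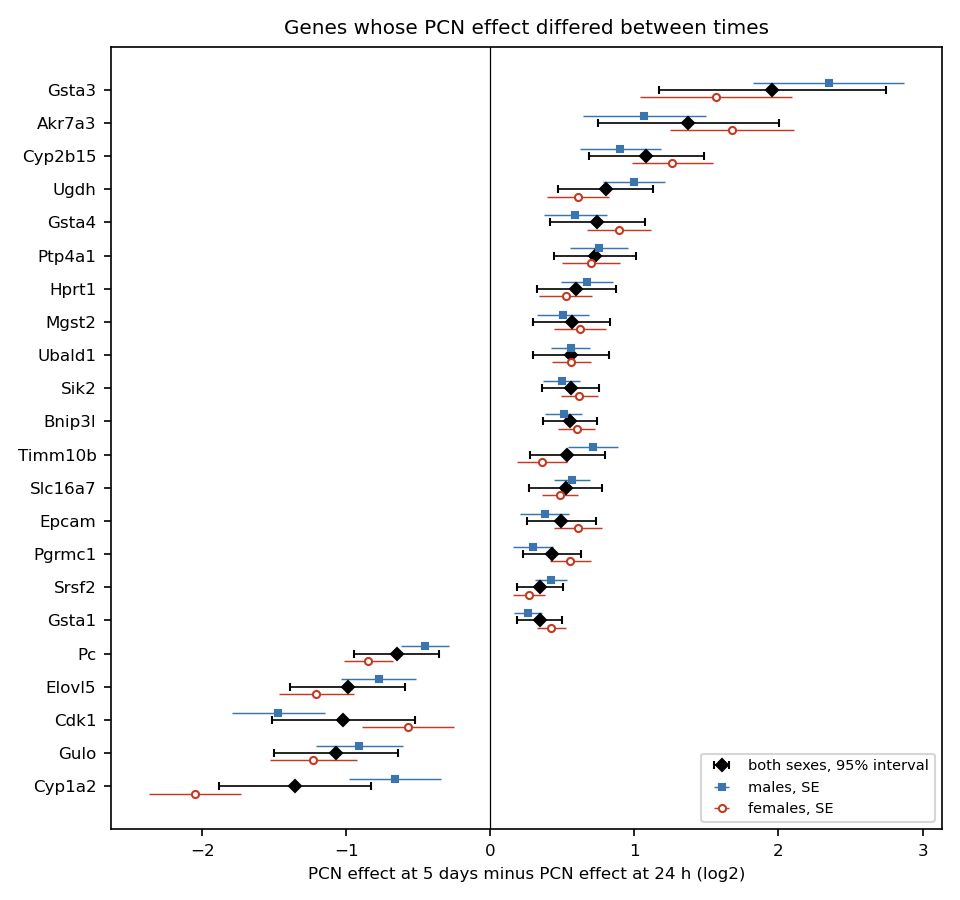
Difference between the PCN effects (5 days minus 24 h, log2) of the 22 genes that passed, with 95% intervals for both sexes (black diamonds) and estimates with SE for males (blue squares) and females (red circles), 5 rats a group. The sexes share the sign at all 22 genes, which were chosen on both sexes together, a choice that favours a shared sign. The differences over both sexes run from 1.96 at Gsta3 to -1.36 at Cyp1a2.

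Hepatocyte markers were high in every rat. The summed level of 13 hepatocyte markers lay between 16.15 and 16.31 in all 4 groups of 10. Of them 1 was higher and 3 lower after PCN at 24 h, where 1.98% and 1.08% of all genes were. At 5 days 2 were higher and 4 lower, where 6.74% and 5.3% of all genes were. Summed macrophage markers had medians of 11.38 and 11.14 in vehicle and PCN rats at 24 h and 11.42 and 11.21 at 5 days. Of these 8 markers 2 were lower after PCN at 5 days, beside 5.3% of all genes. Bile duct markers had 9.76 and 9.43 and then 9.87 and 9.26. At 5 days 1 of the 7, Epcam, was higher after PCN and 1 was lower, beside 6.74% and 5.3% of all genes. Of the 7 Epcam alone showed a difference (0.49 ± 0.12, adjusted p = 0.0484), a call lost in 32 of 40 fits without 1 rat. No endothelial, stellate, lymphocyte or blood marker passed for the PCN effect at either time. Csf1r, Vwf, Tagln, Des, Cd3d and Cd2 were at the floor on at least 20 of the 40 arrays. The part of cell numbers in the effects given here was not tested.

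The count of 35 moves with single rats. It was 23 without vehicle rats 1008 or 1509 or PCN rat 5008, 22 without vehicle rat 1507, and 21 without vehicle rat 1010 or PCN rat 5010. It was 20 without vehicle rat 1515, 19 without PCN rats 5015 or 5511, and 17 without vehicle rat 1513 or PCN rat 5514. Those 17 were all among the 35. Of the 35 probe sets 16 passed in every one of the 40 fits, among them those of Gsta3, Cyp1a2, Cyp2b15, Gulo, Elovl5, Ugdh, Ptp4a1, Sik2 and Bnip3l. With other ways of processing, the calls of Cyp2b15, Cyp1a2 and Elovl5 were lost only with no normalisation, under which all 22 genes lost theirs. Of the 22, 16 lost the call without a term for sex, Gsta3 among them from its brightest probe set (adjusted p = 0.58). With all 90 arrays of the parent study in the fit 14 lost it, Akr7a3, Ugdh, Ptp4a1, Gulo and Bnip3l included, and 7 with the 89 arrays that remain without vehicle rat 1003.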

How the data were processed

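Liver RNA of 40 rats was measured on 1 array type, from biotin-labelled cRNA. The authors deposited linear intensity values per probe set, some of them below 0, and how they were computed is not stated in any source used here. Groups and sex came from the sample titles. The deposited intensities were quantile normalised over the 40 arrays and put on a log2 scale as log2(value + 16), with 0 in place of negative values. Of 8799 probe sets 59 controls were left out. Each probe set was modelled by 4 means of treatment and time plus a term for sex (limma 3.58.1, R 4.3.3, lmFit and eBayes), with p adjusted by Benjamini-Hochberg over 8740 probe sets. All tests were two-sided. A second fit, with the sexes split into 8 groups, gave the values within each sex.

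Probe sets with 1 symbol (7018, 308 had several and 1473 none) were named through the array annotation and updated by Entrez number to RefSeq (6994 found). A gene was read from its brightest probe set. Named genes were a fixed set of key genes, the 10 largest differences each way that passed, up to 4 per list, up to 8 per class, and those with a passed sex difference, of which there were none. Genes outside this rule are marked as picked after their values were seen, apart from Srsf2, Acly, Crot and Nup58, each of which had a probe set that passed. Nqo1, named for its promoter window, and the markers named as at the floor are outside the rule too. The members, lists and rules were chosen with earlier results of these data known. The fit was tested on simulated data. Depth has no meaning for arrays, so that the number of rats limits the precision. The rats were separate animals. Figures were drawn with Python and matplotlib.

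Alternatives were other pseudocounts (1 and 64), median scaling, no normalisation, the dimmest probe sets left out, another eBayes setting, all 90 arrays of the parent study, 89 without vehicle rat 1003, separate sexes, no sex term and each rat left out. Leaving out the 650 constant probe sets was chosen after seeing the data.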

Additional observations from a re-analysis of the deposited data

Results flagged for a closer look

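The PCN effect differed between 5 days and 24 h at 35 probe sets by the test of the difference itself. At 5 days the PCN effect also differed between the sexes, females minus males, for Cyp3a18 (2.31), Cyp3a2 (2.07), Gstm1 (1.23) and Cyp4a1 (-1.53), each past the adjusted threshold of limma.

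Single rats stood far from the other 4 of their group in 24 of the 392 pairs of gene and group that were looked at, where chance alone gives about 5% (levels in log2). Among vehicle males these were Abcb1a in rat 1008 (5.28), Abcb1b in rat 1006 (4.11), Cyp7a1 in rat 1007 (4.83) and Grin2a in rat 1010 (4.98) at 24 h. At 5 days they were Cyp3a2 (11.20) and Psmb3 (9.60) in rat 1012, and Pck1 (12.03) and Grin2a (5.20) in rat 1015. Among vehicle females they were Ugt2b1 in rat 1510 (9.82), Cyp2c11 in rat 1507 (7.12), and Akr7a3 (7.82), Ubald1 (6.52) and Grin2a (4.03) in rat 1508 at 24 h. At 5 days they were Cyp3a2 (5.24), Abcb1a (4.17) and Timm10b (7.85) in rat 1513, Cdk1 in rat 1514 (4.28) and Grin2a in rat 1511 (5.30). Among PCN males they were Mgst2 in rat 5006 (9.82) at 24 h, and Cyp7a1 in rat 5014 (7.38) and Pc in rat 5011 (8.999) at 5 days. Among PCN females at 5 days they were Ugt2b1 in rat 5514 (11.24), and Sds (8.62) and Gsta1 (11.84) in rat 5513. Grin2a, Abcb1a, Abcb1b and Cdk1 sit near the floor, where most rats of a group share 1 value.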

How the results depend on the processing

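No paired analysis was possible because the rat numbers are unique to each rat, so that no number is shared between groups. No difference that passed changed sign under any alternative run. Among those that did not pass, Cyp3a9, Abcb1b, Gaa, Sult2a1, Slco1a4 and Grin2a did so under at least 1. The number of probe sets whose PCN effect differed between the times was 35, against 2 with no normalisation, 19 with all 90 arrays, 62 with 8 group means, 10 with no sex term, and 17 to 41 with each rat left out. The calls at 24 h and at 5 days fell to 49 and 322 with no normalisation. The vehicle count between the times was 222, against 142 with median scaling, 26 with no normalisation, 146 with all 90 arrays and 142 with no sex term, and the PCN count was 680, against 141 with no normalisation. The count in males was 9, against 1 with no normalisation, 18 with 89 arrays, 1 with males fitted alone, and 5 to 17 without each rat. The count in females was 39, against 22 with a pseudocount of 1, 5 with median scaling (2 of them higher), 0 with no normalisation, 20 with all 90 arrays, 5 with females fitted alone, and 8 to 71 without each rat. The count for the difference between the sexes was 0, against 1 with a pseudocount of 64 and 0 to 5 without each rat, the 5 without vehicle female rat 1511. The class of grown effects held 7 probe sets with median scaling and 19 with 8 group means, against 11. The cause of these shifts was not tested. Leaving out the constant probe sets, chosen after seeing the data, gave 34. The number of rats and the floor limit what could be seen for dim probe sets.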
